A study of Mus musculus with 9 samples.

Results

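Chromatin accessibility was compared between alphaTC1 cells transduced with an shRNA against Smndc1 and alphaTC1 cells transduced with an empty vector. The comparison takes the 3 libraries of each group and covers every consensus region of the deposited table: 80827 of 80827 regions, measured in 6 of the 9 libraries of the series. alphaTC1 is a mouse line of pancreatic alpha cells. All libraries were made 5 days after transduction by ATAC-seq, in which a transposase cuts and tags open DNA. The remaining 3 libraries come from cells transduced with an shRNA against Atrx, the gene of a chromatin remodeler, and serve here as a further reference. They are also part of the fit, where they enter the estimate of the spread, the scaling and the count filter. Both shRNA groups are set against the same 3 empty vector libraries, so their contrasts with empty vector are not independent of each other. The labels describe 3 individual biological replicates. They name a single shRNA per gene, a single cell line and an empty vector rather than a non-targeting shRNA, so an effect of the shRNA itself and an effect of losing Smndc1 cannot be told apart. A region less open in every cell and a region closed in part of the cells also cannot be told apart in bulk libraries.

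Smndc1 encodes SPF30, a Tudor-domain protein of the spliceosome that binds methylated arginines and takes part in assembly of the U2-containing complexes. Open regions mark promoters, usually close to the start of a gene, and enhancers, which can lie far from the gene they act on and are often specific to a cell type. Alpha cells make glucagon, and their identity rests on transcription factors such as Irx1 and Irx2, while Pdx1, Nkx6-1 and Mafa are regulators of the insulin-producing beta cell.

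The libraries held 5.29 to 8.15 M counts in regions. Their contrast differed within each group: the strongest 10% of tested regions took 38.4% to 38.7% of counts in replicate 3 of all 3 groups, and 43.1% to 48.7% in the other 6 libraries. Each region was tested in a fit that scales a library by 1 factor (TMM), and again with offsets that follow a smooth curve of each library against mean count (trended offsets), which levels out that contrast. The first is the main fit. The text says which of the 2 a value comes from, since they call different numbers of regions. Levels are counts over library size in M (CPM) on the scale of the fit named, log2 fold changes are Smndc1 shRNA against empty vector with their standard error (SE), and a region was called at an adjusted p under 0.05 (edgeR quasi-likelihood test, Benjamini-Hochberg over all 80345 regions that passed the count filter). At Smndc1 itself the region over the start site stood at 49.3 ± 9.10 CPM with empty vector and 44.5 ± 9.58 with Smndc1 shRNA (TMM; mean ± SD, n = 3 each; adjusted p = 0.939, edgeR), which is no check of the knockdown, since an shRNA acts on RNA.

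Listed start sites came from RefSeq (GRCm38.p6), which gives for part of the coding genes a window from 250 bases before to 50 bases after a transcription start. Of the tested regions, 8667 overlapped such a window. In the trended fit 48 of them were higher with Smndc1 shRNA and 66 lower, that is 0.554% and 0.762%, beside 0.413% and 0.708% of all tested regions. With TMM factors 0 were higher and 2 lower (those of Akap3, an anchoring protein of protein kinase A, and Adcy7, an adenylyl cyclase), beside 0.0199% and 0.136% of all regions. Among the 114 start-site calls, 9 held whichever of the 9 libraries was left out: Prox1, Asic2 and Rtn4, higher, and Rab22a, Atf2, Map9, Qdpr, Rrbp1 and the start shared by Phtf2 and Tmem60, lower. None of these 9 was called with TMM factors (adjusted p of 0.268 to 0.714).

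The windows of the 3 higher genes and of 3 of the 6 lower ones are printed to show what DNA lies in these regions, a choice made with the calls known. They run 5′ to 3′ on the strand of the gene, and capitals mark 2 promoter elements on either strand, the CCAAT box (CCAAT or ATTGG) and the GC box (GGGCGG or CCGCCC), which were picked out of 8 elements on the shares given further on. Prox1 is at chr1:190169466-190169765 (minus strand), Asic2 at chr11:81152854-81153153 (minus), Rtn4 at chr11:29693524-29693823 (plus), Rab22a at chr2:173659595-173659894 (plus), Atf2 at chr2:73892590-73892889 (minus) and Map9 at chr3:82357822-82358121 (plus). With trended offsets the first 3 rose and the last 3 fell.
Prox1: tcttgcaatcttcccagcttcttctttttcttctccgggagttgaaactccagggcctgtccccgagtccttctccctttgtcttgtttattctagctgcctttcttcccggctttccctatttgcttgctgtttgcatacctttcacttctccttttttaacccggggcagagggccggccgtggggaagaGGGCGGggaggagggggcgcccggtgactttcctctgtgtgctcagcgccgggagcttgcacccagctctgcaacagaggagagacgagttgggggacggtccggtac
Asic2: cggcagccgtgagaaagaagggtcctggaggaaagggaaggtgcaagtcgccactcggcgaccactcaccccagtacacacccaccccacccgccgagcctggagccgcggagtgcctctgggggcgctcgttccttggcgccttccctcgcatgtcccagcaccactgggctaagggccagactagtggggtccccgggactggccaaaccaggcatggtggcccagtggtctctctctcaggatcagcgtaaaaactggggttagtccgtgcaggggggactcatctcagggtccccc
Rtn4: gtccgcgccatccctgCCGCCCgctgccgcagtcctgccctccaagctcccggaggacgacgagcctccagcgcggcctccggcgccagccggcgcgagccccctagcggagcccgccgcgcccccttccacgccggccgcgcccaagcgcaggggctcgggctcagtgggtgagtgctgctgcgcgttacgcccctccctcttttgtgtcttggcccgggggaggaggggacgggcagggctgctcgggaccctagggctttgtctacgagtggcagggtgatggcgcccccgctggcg
Rab22a: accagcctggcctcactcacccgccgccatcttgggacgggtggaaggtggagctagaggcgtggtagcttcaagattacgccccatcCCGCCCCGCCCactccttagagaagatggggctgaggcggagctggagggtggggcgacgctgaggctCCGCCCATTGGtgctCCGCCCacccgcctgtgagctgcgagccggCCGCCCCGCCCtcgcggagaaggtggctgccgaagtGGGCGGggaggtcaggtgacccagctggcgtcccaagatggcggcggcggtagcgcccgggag
Atf2: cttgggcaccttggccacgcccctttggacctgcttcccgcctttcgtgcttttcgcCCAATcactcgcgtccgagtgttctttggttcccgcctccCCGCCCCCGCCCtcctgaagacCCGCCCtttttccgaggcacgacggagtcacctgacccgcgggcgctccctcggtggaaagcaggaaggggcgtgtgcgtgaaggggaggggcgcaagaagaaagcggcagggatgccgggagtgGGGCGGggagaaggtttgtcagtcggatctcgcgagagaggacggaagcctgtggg
Map9: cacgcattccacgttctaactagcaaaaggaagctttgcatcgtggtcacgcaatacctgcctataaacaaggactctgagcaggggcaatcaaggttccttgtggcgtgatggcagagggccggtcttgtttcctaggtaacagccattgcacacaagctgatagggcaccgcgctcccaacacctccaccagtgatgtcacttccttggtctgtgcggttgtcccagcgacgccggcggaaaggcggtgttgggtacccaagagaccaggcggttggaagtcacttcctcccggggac
Among the 3 higher windows, the CCAAT box occurred in 0 and the GC box in Prox1 and Rtn4, with 1 match each. Among the 3 lower windows, Rab22a held 1 CCAAT box and 7 GC boxes, and Atf2 held 1 and 4. The printed Map9 window held 0 of either, so the 3 printed lower windows did not all hold either of these elements. The Map9 region overlaps 2 listed windows, of which 1 is printed.

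Prox1, a homeobox factor of endocrine and lymphatic development, had levels of 28.4, 21.1 and 18.6 CPM in the empty vector libraries at its start and 39.2, 39.9 and 42.3 with Smndc1 shRNA (trended offsets). All 3 Smndc1 shRNA libraries were above all 3 empty vector libraries, by 0.82 ± 0.15 SE on the log2 scale (adjusted p = 0.000244, edgeR). The start in Asic2, a subunit gene of acid-sensing ion channels, went from 23.1 ± 1.37 to 37.7 ± 2.56 CPM (SD, n = 3 each; 0.70 ± 0.15 SE, adjusted p = 0.00314, edgeR). A start inside Rtn4, which encodes the reticulon Nogo, went from 54.8 ± 4.29 to 79.8 ± 7.84 CPM (0.53 ± 0.12, adjusted p = 0.00278, edgeR).

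Of the lower starts, that of Rab22a, a small GTPase of endosomes, stood at 76.2, 80.0 and 76.9 CPM with empty vector and 58.4, 42.5 and 46.8 with Smndc1 shRNA (log2 fold change -0.66 ± 0.12 SE, adjusted p = 0.000221, edgeR with trended offsets). The groups were apart, and the Atrx shRNA libraries, at 57.8, 51.2 and 57.5 CPM, lay on the Smndc1 side. Atf2, a factor of the CREB and AP-1 families, fell from 60.8 ± 6.03 to 39.2 ± 5.01 CPM (SD, n = 3 each; -0.64 ± 0.13, adjusted p = 0.000913, edgeR). Its Atrx shRNA libraries, at 61.4, 50.2 and 57.9 CPM, overlapped the empty vector range of 54.2 to 65.9. At Map9, a microtubule-associated protein, the levels were 96.5, 82.4 and 87.3 CPM against 63.3, 55.7 and 57.4 (-0.59 ± 0.12, adjusted p = 0.000598, edgeR). The Atrx shRNA libraries, at 63.6, 70.0 and 55.3 CPM, were also below empty vector (-0.49, adjusted p = 0.0209, edgeR). Qdpr, which regenerates tetrahydrobiopterin, fell from 141.0 CPM in each empty vector library to between 92.3 and 107.0 (-0.51 ± 0.10, adjusted p = 0.00111, edgeR). At Qdpr, Atrx shRNA was also called lower than empty vector (-0.43, adjusted p = 0.0253, edgeR). These regions were picked on their difference from the same empty vector libraries, so the Atrx shRNA values here and below are no independent evidence.

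**Figure D1:**
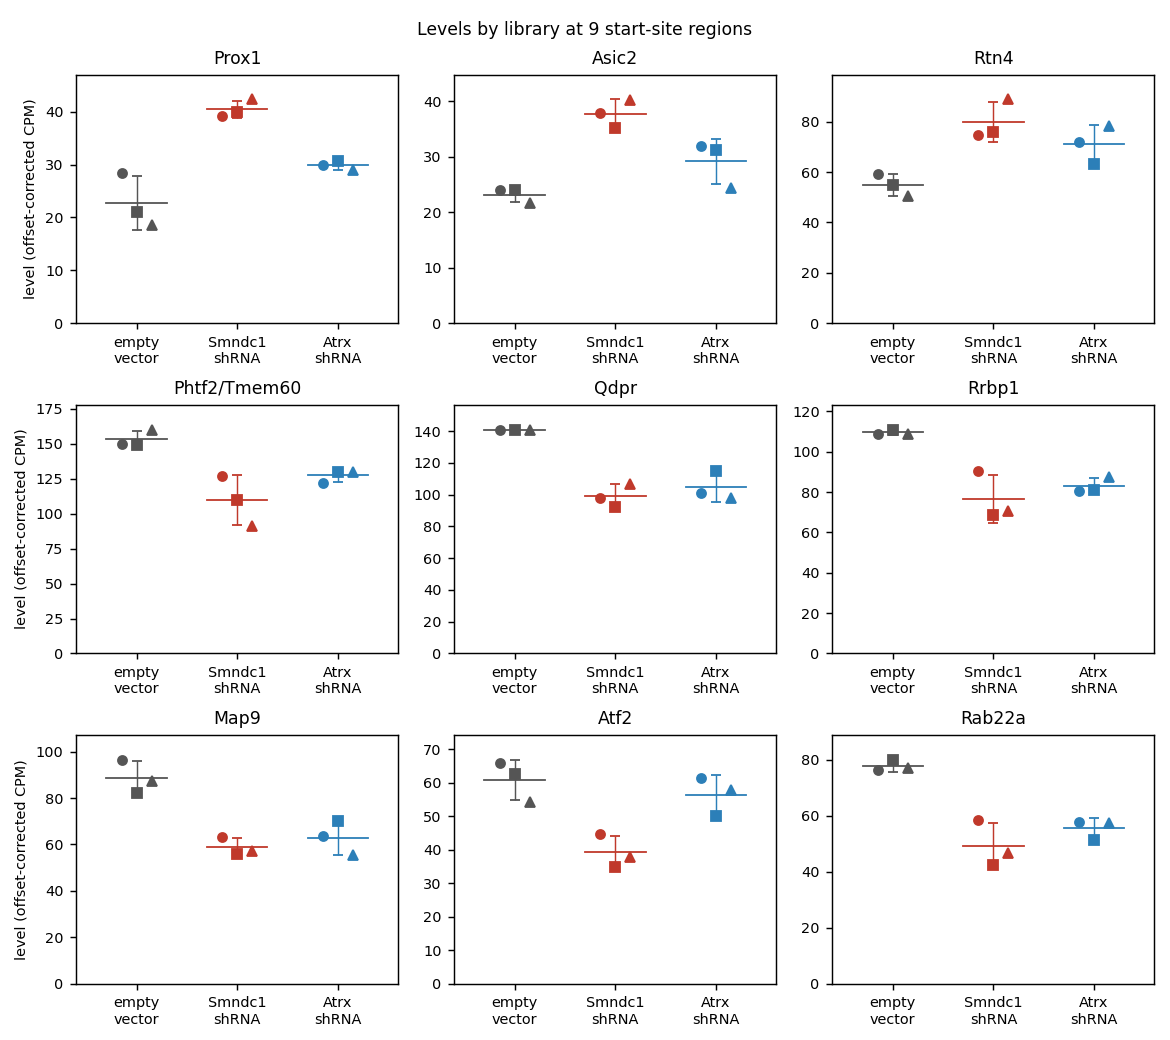
Levels (offset-corrected CPM, linear axis from 0) at the 9 start-site regions called whichever library was left out, by group; circles, squares and triangles are replicates 1, 2 and 3, horizontal lines the means and bars the SD (n = 3). The 3 higher regions come first, and in all 9 the Smndc1 shRNA libraries lie on one side of the empty vector libraries. These 9 were chosen from the calls, and the groups did not overlap in 12998 of all 80345 tested regions.

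Across all start-site calls, changes were small: the median log2 fold change was 0.51 in the 48 higher regions (range 0.39 to 1.17) and -0.50 in the 66 lower ones (-1.64 to -0.39). The counts moved with the libraries used: 8 were higher and 10 lower without replicate 2 of the empty vector, 12 and 35 without its replicate 1, 27 and 51 without replicate 1 of Smndc1 shRNA, 32 and 27 without its replicate 2 and 81 and 67 without its replicate 3. In all, 8 promoter elements were searched in the windows after the calls had been seen, so the shares below are descriptions without a test. The CCAAT box occurred in 64.0% of the 75 windows at lower regions and 35.8% of the 53 windows at higher regions, beside 39.3% of the 10440 windows at tested regions, 40.2% of those at the strongest 20% of regions and 38.2% of all 21263 listed windows. The GC box occurred in 85.3% and 56.6%, beside 68.4%, 72.2% and 46.2%.

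The other 6 elements differed less in absolute share and were rarer. The ETS site (CCGGAAG) occurred in 21.3% of lower, 9.43% of higher and 19.8% of tested windows, and the E-box (CACGTG) in 5.33%, 9.43% and 10.4%. The TATA box (TATAAA) was in 5.33%, 7.55% and 5.77%, and the AP-1 site (TGANTCA) in 3 of the 75 lower windows, 7.55% of the higher and 4.38% of the tested ones. The cyclic AMP response element (TGACGTCA) was in 1.33%, 3.77% and 3.58%, and the forkhead site (TGTTTAC) in 1.33%, 3.77% and 2.41%. Each was searched on both strands, and overlapping matches of different elements were counted for each. Base composition was close between the sets, with a median GC content of 64.7% in lower, 64.3% in higher and 63.0% in strong windows.

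The same contrast was computed in each library over the 7143 regions that overlap a single window, as the median log2 level of the 2813 with a CCAAT box minus that of the 4330 without, each level as log2(CPM + 0.5) relative to the region's mean over the 9 libraries. With trended offsets it was 0.046, 0.035 and 0.064 in the empty vector libraries and -0.022, -0.080 and 0.039 in the Smndc1 shRNA libraries, a difference of -0.069, and the groups overlap in replicate 3 of Smndc1 shRNA. With TMM factors it was 0.047, 0.042 and 0.047 against -0.023, -0.061 and 0.019, and the groups do not overlap. For the GC box, the other element in capitals, it was -0.010, 0.013 and 0.023 against -0.008, -0.003 and -0.017 with trended offsets, and the groups overlap. For the forkhead site it was 0.022, 0.021 and -0.008 against -0.008, -0.012 and -0.012 with TMM factors, over 188 regions with the site. For the CCAAT box the Atrx shRNA libraries, at -0.050, -0.021 and -0.008 with trended offsets, were also below empty vector. No p is given, because this element was picked out of 8 on the same calls.

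Over the whole genome, 16 regions were higher and 109 lower with TMM factors. In the trended fit 332 were higher and 569 lower, and all 125 of the first set were among them in the same direction. The lower share was 87.2% with TMM factors and 63.2% with trended offsets, while the median log2 fold change of all tested regions was 0.02 and 0.01. Of the 901 calls with trended offsets, 98 held whichever library was left out, 24 higher and 74 lower. With TMM factors 1 did, in Dbnl. The TMM counts ran from 1 higher and 0 lower without replicate 1 of the empty vector (1861 and 2281 at an unadjusted p under 0.05, edgeR) to 204 and 405 without its replicate 3, with 2 and 11 without its replicate 2 and 4 and 12 without replicate 1 of Smndc1 shRNA. Each TMM call other than Dbnl was therefore lost without replicate 1 of the empty vector. In the trended fit the lowest counts were 63 and 168, without replicate 2 of the empty vector, and the highest 535 and 665, without its replicate 3.

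That region lies inside Dbnl, the gene of a drebrin-like adaptor that links actin to endocytosis, 4.23 kb past the listed start (chr11:5792461-5792961). The levels were 6.22, 7.52 and 8.30 CPM with empty vector, 25.4, 21.5 and 28.1 with Smndc1 shRNA and 9.96, 6.87 and 8.44 with Atrx shRNA (TMM). The Smndc1 shRNA libraries stood apart from the other 6, and the log2 fold change against empty vector was 1.77 ± 0.24 SE (adjusted p = 8.87e-06, edgeR). Near Abr, a regulator of small GTPases, a region between genes, 23.67 kb from the gene's nearer end (chr11:76646995-76647980), stood at 18.1, 15.6 and 16.3 CPM with empty vector and 43.2, 43.9 and 31.8 with Smndc1 shRNA (1.25 ± 0.24, adjusted p = 0.00657, edgeR). A region between genes, 963.71 kb past the start of Mat2b, rose from 2.96, 4.15 and 2.82 CPM to 11.3, 14.7 and 11.2 (1.89 ± 0.32, adjusted p = 0.00195, edgeR). At Abr the Atrx shRNA libraries, at 14.1 to 23.4 CPM, were all below those of Smndc1 shRNA.

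Among the lower regions, Unc80, a subunit of the sodium leak channel complex, held a region in its gene body at 15.1, 12.6 and 6.11 CPM with empty vector and 3.97, 2.03 and 3.38 with Smndc1 shRNA (TMM; -1.84 ± 0.35 SE, adjusted p = 0.00657, edgeR). The empty vector libraries spread widely there but all lay above the Smndc1 shRNA libraries. At an end of Itih3, a heavy chain of inter-alpha-trypsin inhibitor, levels fell from 5.33, 7.39 and 7.83 CPM to 0.882, 2.37 and 1.69 (-2.06 ± 0.47, adjusted p = 0.0335, edgeR). At the Zc3h10 end region they fell from 25.5, 22.3 and 24.9 to 8.53, 10.3 and 9.64 (-1.35 ± 0.23, adjusted p = 0.00223, edgeR). Zc3h10 kept levels of 18.5 to 22.6 CPM with Atrx shRNA, above every Smndc1 shRNA library. A region in Bcl2, the inhibitor of apoptosis, fell from 7.53 ± 1.85 to 2.15 ± 0.513 CPM (-1.80 ± 0.40, adjusted p = 0.0274, edgeR), and the call was lost without replicate 1 or 2 of either group.

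**Figure D2:**
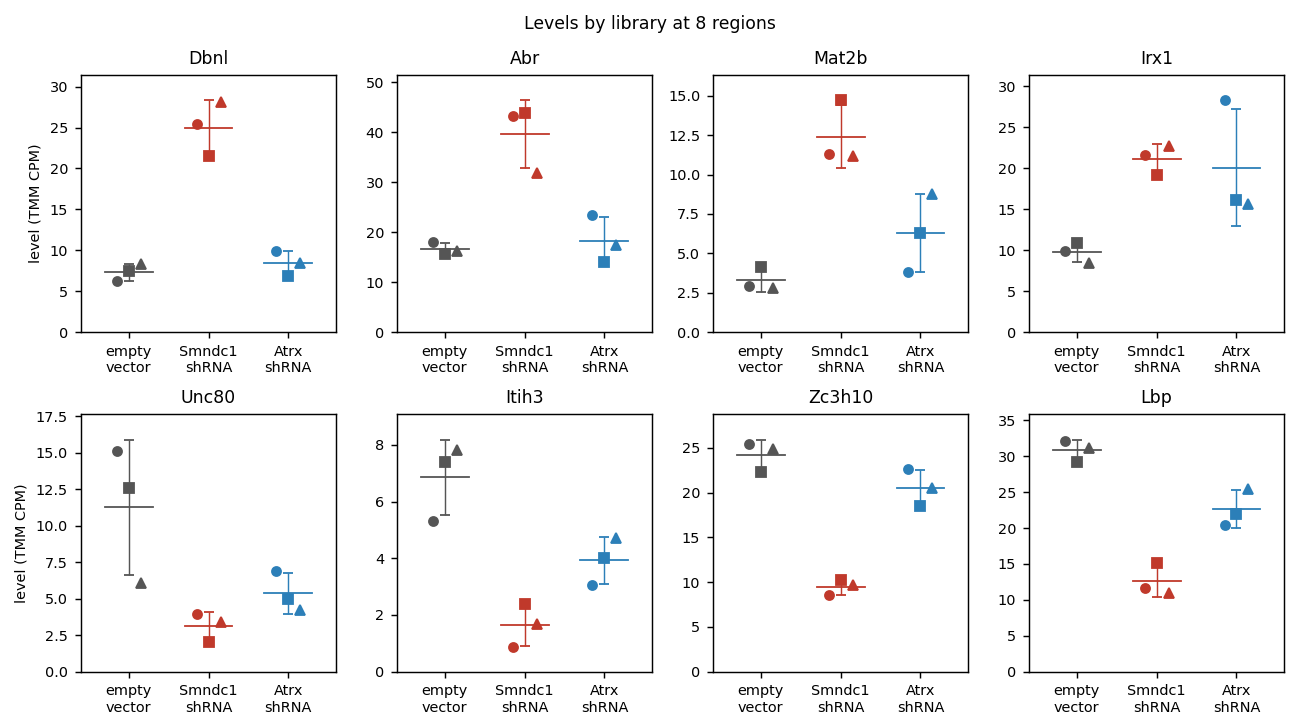
Levels (TMM CPM, linear axes from 0, each panel with its own range) at 8 of the named regions, chosen for display with their values known; symbols are replicates 1 to 3, lines the means and bars the SD (n = 3). In each panel the Smndc1 shRNA libraries lie above (Dbnl, Abr, Mat2b, Irx1) or below (Unc80, Itih3, Zc3h10, Lbp) all empty vector libraries. Except for Lbp, groups that do not overlap were a condition of naming. Of all 80345 tested regions, 10268 had groups that do not overlap.

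The called regions differed from the rest in width, strength and distance from starts. The 109 lower regions of the TMM fit had a median width of 627 bp and lay a median of 51.8 kb from the nearest listed start, beside 501 bp and 33.6 kb for all tested regions. The 332 higher regions of the trended fit lay closer to starts, at a median of 8.94 kb, and the 569 lower ones at 38.6 kb. Chromosome 18 has no start window here, and its 2416 tested regions entered these medians as if at a start. Among them are 7 of the lower TMM calls and 8 higher and 16 lower trended calls. This can only lower the medians. The strongest 20% of regions held 56.2% of the calls with trended offsets. By width, calls with trended offsets did not run one way. Of 42710 regions up to 501 bp wide, 92 were higher and 32 lower (0.215% and 0.0749%). Of 8926 over 501 and up to 600 bp, 20 were higher and 160 lower (0.224% and 1.79%). Of 2555 over 1200 bp, 44 were higher and 10 lower (1.72% and 0.391%). Over all tested regions the shares were 0.413% and 0.708%. The share of library counts at gene ends was 40.7 ± 3.33% with empty vector and 40.6 ± 3.59% with Smndc1 shRNA (n = 3 each, exact permutation test, two-sided, p = 1.0), and 3 libraries against 3 cannot give a p under 0.1.

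Transcription factors of the endocrine pancreas were mostly higher where they were called. Of the 303 regions assigned to 43 such genes, 11 were higher and 1 lower with trended offsets (3.63% and 0.33%, beside 0.413% and 0.708% of all regions), and 1 was higher and 0 lower with TMM factors. Their median log2 fold change was 0.16, beside 0.01 for all regions. Lists of other cell types had medians of like size without a higher call: 0.26 over 60 regions of endothelial markers, 0.15 over 30 of acinar and ductal markers and 0.13 over 31 of keratins. Irx1, an alpha cell regulator, was the gene called in both fits: a region in its body stood at 9.92, 10.9 and 8.45 CPM with empty vector and 21.6, 19.2 and 22.7 with Smndc1 shRNA (TMM; 1.11 ± 0.24 SE, adjusted p = 0.022, edgeR). The Atrx shRNA libraries, at 28.3, 16.2 and 15.7 CPM, were also above empty vector. The strongest gene-end region of Irx1 did not pass the test (-0.03 ± 0.24, adjusted p = 0.991, edgeR).

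Irx2, its neighbour and also an alpha cell factor, rose at an end region from 12.2, 14.9 and 10.1 CPM to 20.8, 25.6 and 24.2 with trended offsets (0.91 ± 0.20 SE, adjusted p = 0.0042, edgeR). This is the gene-end region of Irx2 with the highest level. When regions at listed starts were counted as well, the strongest region of Irx2 was another one, which did not pass the test. Its means were 57.5 and 56.8 TMM CPM, with a log2 fold change of 0.02 with trended offsets (adjusted p = 0.97, edgeR). Nkx6-1, which acts in beta cells, rose at a region in its body (0.77 ± 0.17, adjusted p = 0.00302, edgeR with trended offsets), while its strongest end region read -0.19 ± 0.13 (adjusted p = 0.561, edgeR). At the region in its body, Atrx shRNA was also called higher than empty vector (0.83, adjusted p = 0.00458, edgeR with trended offsets). Single regions of Foxa2, Insm1 and Neurod1 were higher by 0.54, 0.55 and 0.54, and 1 region near Sox4 was lower by -0.87. The count for these genes was 4 higher without replicate 1 or replicate 2 of the empty vector, 6 without replicate 2 of Smndc1 shRNA and 14 without its replicate 3. At Gcg, the glucagon gene, the start region stood at 34.5 ± 10.2 and 31.6 ± 2.96 CPM (TMM, SD, n = 3 each; adjusted p = 0.944, edgeR).

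The markers of the line were checked at the strongest region of each marker at a gene end or listed start. Summed over the 7 of 10 alpha cell markers with such a region, the level was 248 to 359 TMM CPM with empty vector and 283 to 407 with Smndc1 shRNA. For the 3 of 9 beta cell markers it was 103 to 149 and 88.8 to 122 CPM. The beta and delta cell hormone genes Ins1, Ins2 and Sst and the regulator Pdx1 had 0 tested regions of this kind. Ductal markers, with 3 of 4 genes measured, summed to 50.1 to 65.4 CPM with empty vector and 66.1 to 73.4 with Smndc1 shRNA, so these groups did not overlap, and the part of this in the results was not tested. Endothelial markers, with 1 of 5 genes measured, summed to 1.82 to 5.33 and 1.52 to 3.56 CPM, and none of these strongest regions was called in either fit.

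Inhibitors of cyclin-dependent kinases made up all calls among cell cycle genes. Of the 152 regions of 39 genes, 5 were higher and 0 lower with trended offsets (3.29% higher, beside 0.413% of all regions, with a median log2 fold change of 0.03 over the list), and 0 were called with TMM factors. They lie at Cdkn1b (p27), Cdkn1a (p21) and Cdkn2c (p18), all of which restrain entry into or passage through the cycle. The region near Cdkn1b stood at 34.8, 36.0 and 31.0 CPM with empty vector and 50.1, 61.2 and 48.2 with Smndc1 shRNA (0.65 ± 0.13 SE, adjusted p = 0.00113, edgeR with trended offsets). Groups that do not overlap on this scale were a condition of naming it. With TMM factors its groups overlapped, at 25.8 to 40.7 CPM with empty vector and 39.9 to 72.0 with Smndc1 shRNA. The groups also overlapped with TMM factors at Cdkn1a and at a region of Cdkn2c. Near Cdkn1b, Atrx shRNA, at 54.3, 55.4 and 52.7 CPM (trended offsets), lay within the Smndc1 shRNA range. Cdkn1a went from 35.7 ± 2.53 to 52.4 ± 5.14 CPM (SD, n = 3 each; 0.55 ± 0.13, adjusted p = 0.00819, edgeR), and 3 regions of Cdkn2c rose by 0.64 to 0.83. At Cdkn1a, Atrx shRNA was also called higher than empty vector (0.58, adjusted p = 0.0147, edgeR with trended offsets). The 5 calls became 1 without replicate 2 of Smndc1 shRNA, and 2 and 3 without replicates 2 and 1 of the empty vector.

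Targets of p53 were called in both directions. The trended fit called 4 of 115 regions higher (3.48%, beside 0.413% of all regions) and 2 lower (1.74%, beside 0.708%), and the TMM fit 0. Bbc3, which encodes the pro-apoptotic PUMA, had 2 higher regions (0.45 ± 0.11 SE, adjusted p = 0.0114, and 0.79 ± 0.22, adjusted p = 0.0326, edgeR). With Atrx shRNA against empty vector, the first was also called higher (0.56, adjusted p = 0.00319, edgeR). The second was not called there (0.55, adjusted p = 0.335, edgeR). No higher call of this list was left without replicate 1 of the empty vector. Gadd45a had 1 region higher (0.50) and 1 lower (-0.47), and Xpc, a sensor of DNA damage, was lower by -0.83.

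Axon guidance genes, which islet cells also express, were called in the lower direction with trended offsets: 12 of 568 regions were lower and 0 higher, that is 2.11% lower beside 0.708% of all regions. With TMM factors 1 was lower, near the netrin receptor Dcc, where 0.136% of all regions were lower, so the TMM count is near the background. Receptors and ligands were both among them. Robo2, a Slit receptor, went from 6.62, 7.56 and 5.71 CPM to 3.24, 1.13 and 2.12 (-1.58 ± 0.42 SE, adjusted p = 0.0245, edgeR with trended offsets), and Robo1 read -0.87. Ntn1, the ligand netrin 1, fell from 18.4 ± 2.20 to 10.1 ± 2.19 CPM (SD, n = 3 each; -0.86 ± 0.22, adjusted p = 0.0221, edgeR), and regions of Slit3, Efna5, Sema6a, Sema6d and Ntng1 and of 3 plexin genes were lower by between -1.55 and -0.51. The median over all 568 regions was -0.05. The list's lower count was 0 without replicate 1 or replicate 2 of the empty vector, 4, 5 and 7 without replicates 1, 2 and 3 of Smndc1 shRNA and 13 without replicate 3 of the empty vector.

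Ion channels of excitability had 7 lower and 2 higher regions of 351 with trended offsets, and 3 lower and 0 higher with TMM factors. With trended offsets that is 1.99% lower and 0.57% higher, beside 0.708% and 0.413% of all regions. The lower count was 3 without replicate 2 of the empty vector, 4 without its replicate 1 and 9 without its replicate 3, and the higher count was 0 without replicate 1 or 2 of the empty vector. Beside Unc80, the pore gene of the same leak channel, Nalcn, was lower (-0.83 ± 0.22 SE, adjusted p = 0.0237, edgeR). Calcium channel genes were called at Cacna1e, whose region 225.26 kb into the gene fell from 61.4, 53.9 and 47.2 to 34.5, 32.2 and 34.9 CPM (-0.68 ± 0.13, adjusted p = 0.00074, edgeR), and at Cacna2d1 (-0.87). Kcnh2 was called both ways, and Cacna1c was higher (0.53).

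Secretion genes were called at single regions. In the exocytosis machinery, 2 regions of 176 were higher and 1 lower with trended offsets, that is 1.14% and 0.568% beside 0.413% and 0.708% of all regions. The higher count was 0 without replicate 1 or 2 of the empty vector and 6 without replicate 3 of Smndc1 shRNA. With TMM factors 1 was higher, in Snap47, a SNARE protein gene (1.63 ± 0.38 SE, adjusted p = 0.0389, edgeR). With trended offsets Snap47 read 1.64 with Smndc1 shRNA and 1.92 with Atrx shRNA, each against empty vector (adjusted p = 0.00456 and 0.0025, edgeR). Syt9, a calcium sensor of secretory granules, fell from 7.21, 5.27 and 4.73 CPM to 1.82, 2.09 and 0.981 (-1.82 ± 0.44, adjusted p = 0.0101, edgeR with trended offsets), and Rph3al, a Rab effector, rose by 0.99 ± 0.26 (adjusted p = 0.0215, edgeR). Among prohormone processing and granule genes, 1 of 181 regions was higher and 1 lower with trended offsets (0.552% each), which is near the shares of all regions. The higher one lies 1.74 kb past the start of Pcsk2, the convertase that processes proglucagon (0.64 ± 0.17, adjusted p = 0.0256, edgeR). The strongest end region of Pcsk2 was not called (0.11, adjusted p = 0.746, edgeR). The lower one lies in Ptprn2 (-0.92 ± 0.26, adjusted p = 0.0422, edgeR).

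Splicing genes, the class to which Smndc1 belongs, had single called regions with trended offsets. In the U2 and branch site list 1 of 76 regions was higher (1.32%), near Ddx39b, and among SR and hnRNP genes 2 of 183 were higher (1.09%), at Srsf1 (0.53) and at a region shared by Srrm2 and Elob. In both lists 0 were lower, and the shares over all regions are 0.413% higher and 0.708% lower. That region went from 10.3 ± 2.76 CPM with empty vector to 22.0 ± 2.83 with Smndc1 shRNA (TMM; SD, n = 3 each; Elob, the elongin B gene, 1.09 ± 0.23 SE, adjusted p = 0.022, edgeR). Chromatin remodelers had 1 higher region of 311, in Smarcd3. Cholesterol synthesis genes had 0 called regions of 86, and oxidative stress genes had 2 higher of 105, at Txnrd1 and Hmox1 (heme oxygenase; 1.53 ± 0.39, adjusted p = 0.016, edgeR with trended offsets).

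**Figure D3:**
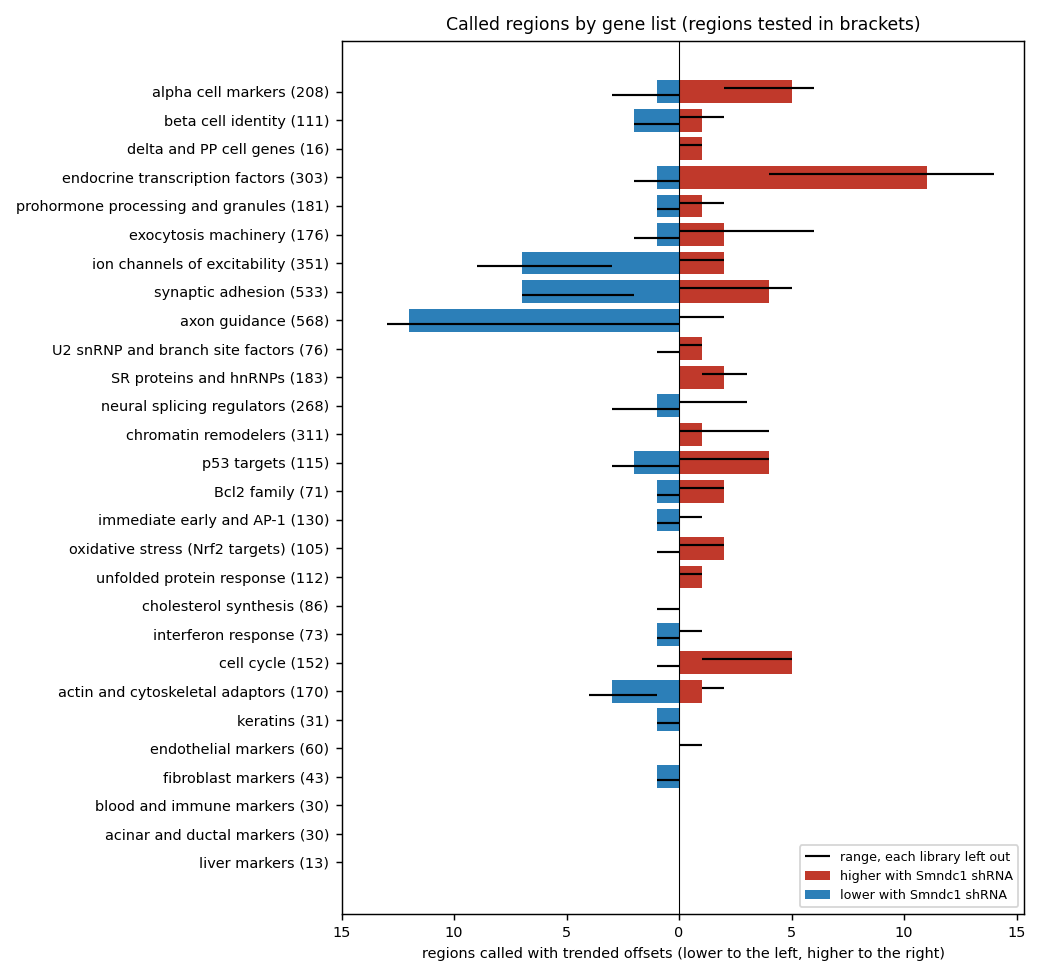
Regions called with trended offsets for each of the 28 gene lists, higher to the right and lower to the left, with the number of regions tested in brackets; black lines give the range of the count when each library was left out in turn. Endocrine transcription factors have 11 higher regions and axon guidance genes 12 lower ones.

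Called regions sometimes lay close together in the same direction. With trended offsets, 31 groups of 2 or more higher calls and 29 of lower calls were found with no gap over 100 kb. How many such groups the density of regions alone would give was not tested. At Bpi and Lbp, genes of lipopolysaccharide-binding proteins on chromosome 2, 4 lower regions lay within 96.0 kb. All 10 tested regions there had a log2 fold change below 0. The 4 calls are among these 10 and set the bounds of the span, so this count is a description. The strongest, past Lbp, went from between 29.2 and 32.1 CPM to 12.6 ± 2.20 (TMM; mean ± SD, n = 3; -1.29 ± 0.23 SE, adjusted p = 0.0049, edgeR). Around Trh, the thyrotropin-releasing hormone gene, and Prickle2, a planar polarity gene, 4 regions were lower within 174 kb. Of the 12 regions tested in that span, 10 were below 0 and 2 above.

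On chromosome 11 the largest group had 5 higher regions in 80.6 kb, and of the 13 tested there 11 were above 0 and 2 below. This group covered Cntnap1, Ccr10, Ezh1 (a Polycomb methyltransferase) and Vps25. Its strongest region went from 36.1, 35.1 and 36.8 CPM to 57.9, 56.8 and 58.1 (Ccr10/Cntnap1, trended offsets, 0.68 ± 0.13 SE, adjusted p = 0.000404, edgeR), with Atrx shRNA at 53.4, 57.2 and 51.4. Another group, at Rdm1 and Arl4d, had 4 higher regions, and 8 of the 8 tested there were above 0. The 4 calls are among these 8, and the median log2 fold change over chromosome 11 was 0.13. Prox1 and Cdkn2c each had 3 higher regions, within 6.46 and 9.12 kb. Prkag2, a regulatory subunit gene of AMP kinase, had 3 higher regions and 1 called lower among the 16 in its span. With TMM factors 0 regions of the groups at Ezh1, Rdm1 and Arl4d, Trh and Prickle2, Prox1, Cdkn2c and Prkag2 were called, and 2 of the group at Bpi and Lbp. With trended offsets and 1 library left out, the lowest number still called was 3 of 5 at Ezh1, 2 of 4 at Bpi and Lbp, 1 of 4 at Rdm1 and Arl4d and at Trh and Prickle2, 1 of 3 at Prox1, and 0 of 3 at Cdkn2c and at Prkag2.

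**Figure D4:**
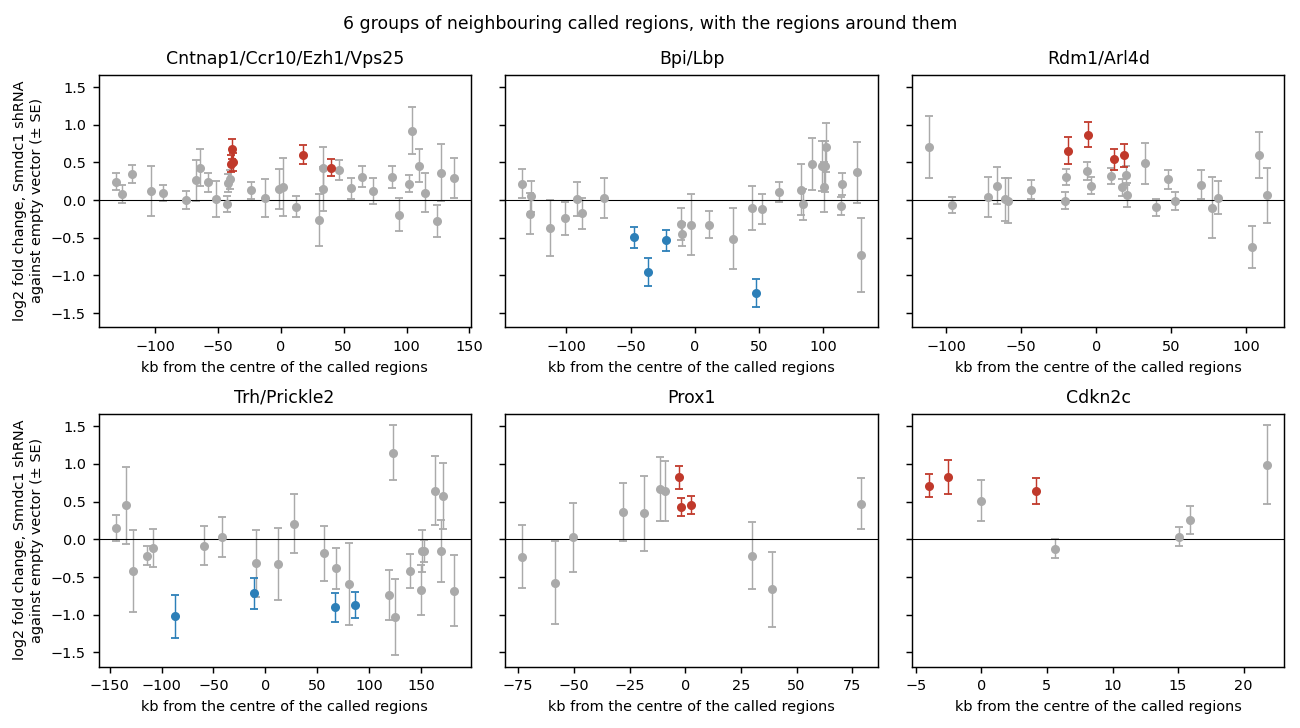
Log2 fold changes (trended offsets, bars are SE) against distance in kb from the centre of 6 groups of neighbouring called regions; coloured points are called (red higher, blue lower) and grey ones are other tested regions. At Bpi/Lbp all 10 regions in the span are below 0, among them the 4 calls that set its bounds.

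Chromosome 11 held 83 higher and 33 lower regions with trended offsets, that is 1.08% and 0.43% of its 7678, beside 0.413% and 0.708% of all regions. It was noticed when calls were split over 20 chromosomes, so this is a description. The median log2 fold change was 0.13 over the chromosome and lay between 0.03 and 0.18 in each window of 10 Mb. The share of library counts on chromosome 11 was 11.5 ± 0.533% with empty vector and 12.3 ± 0.458% with Smndc1 shRNA (SD, n = 3 each), and 11.6, 11.7 and 12.4% in the Atrx shRNA libraries (exact permutation test of Smndc1 shRNA against empty vector, two-sided, p = 0.3). The groups overlapped, and replicate 3 was the highest of each group. Without replicate 2 of the empty vector the counts were 19 higher and 7 lower, and without its replicate 3 they were 197 and 16. On the X chromosome 15 of 1275 regions were lower and 0 higher, with a median of -0.14. That is 1.18% lower, beside 0.708% lower and 0.413% higher of all regions. The X share of library counts was 1.84 ± 0.191% with empty vector and 1.70 ± 0.158% with Smndc1 shRNA. These groups overlapped (SD, n = 3 each; exact permutation test, two-sided, p = 0.4).

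**Figure D5:**
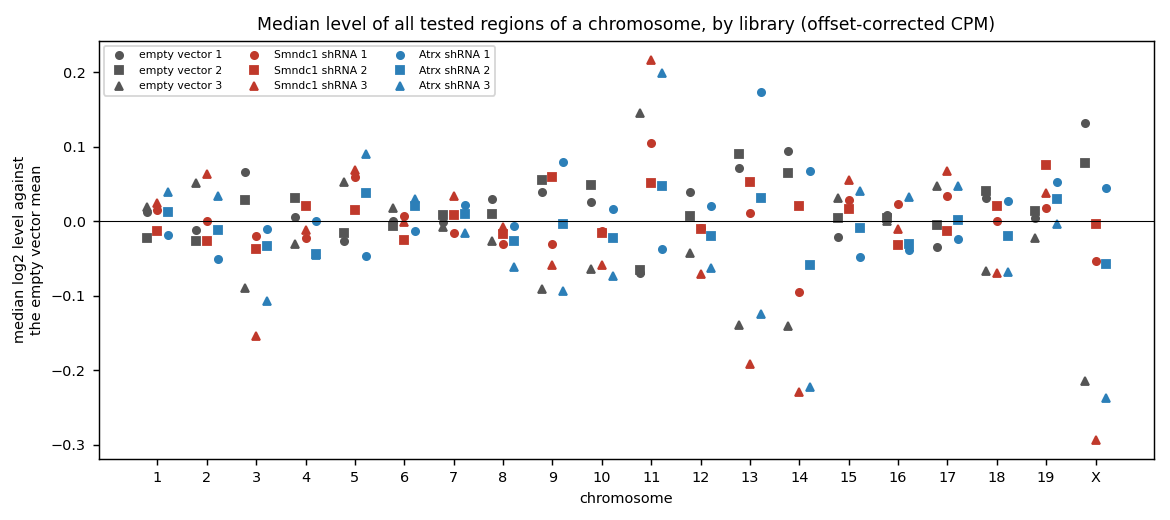
Median log2 level of all tested regions of each chromosome against the mean of the empty vector libraries (log2 of offset-corrected CPM + 0.5), 1 point per library; symbols are replicates 1 to 3. On chromosome 11 replicate 3 of each group is the highest of its group, from 0.146 (empty vector) to 0.217 (Smndc1 shRNA), and on X it is the lowest.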

How the data were processed

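ATAC-seq libraries of alphaTC1 cells, made 5 days after transduction and read as 75 bp paired ends, form 3 groups of 3 labelled replicates. The authors deposited a table of raw counts, whole numbers without scaling, for 80827 consensus regions in 9 libraries (0 columns left unmatched), and the bounds of each region on mm10 (GRCm38). The peak caller MACS2 2.2.7.1, the aligner Bowtie2 2.4.4, bedtools 2.27.1, deepTools 3.5.1 and SAMtools 2.8.0 are named, without settings, per the submitters' processing notes. Not given in the sources used here are the unit counted (reads, fragments or insertions) and any shift of reads for the transposase.

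Counts of all 9 libraries were fitted in edgeR 4.0.16 (R 4.3.3) with a robust quasi-likelihood test, 1 coefficient per group and no block. TMM factors were the main scaling, and loess curves of each library against mean log2 count (span 0.3, trended offsets) the other. The filterByExpr step (minimum count 10) left out 482 regions. DESeq2 1.42.0, limma voom (limma 3.58.1) and the other settings are described with the limits of the results. The scripts were tested on simulated data. Python 3.11.15 with numpy 2.4.6, pandas 2.3.3 and matplotlib 3.10.9 served for tables and plots.

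A gene-end region lies at least in part within 1000 bp outside or 500 bp inside an end of a coding gene. A region is assigned to the gene whose body holds it or else to the gene with the nearest end within 50 kb. Start windows came from RefSeq (GRCm38.p6), which lists them for 17492 of 21900 coding genes. None on chromosome 18 was used. Of the 778 genes in 28 lists, 777 were matched by symbol or older symbol.

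The comparison, scalings, lists and naming rule were chosen with earlier results of these data known. The rule names called regions with a mean log2 CPM of at least 1 and groups that do not overlap: the 12 highest and 14 lowest fold changes with TMM factors and every such gene-end region. It also names up to 3 regions per list and the 8 largest groups of neighbours with trended offsets, and the strongest gene-end region of 19 key genes. Added after the data were seen were the start-site class and its named genes, the 8 promoter elements (16 contrasts by library in all), the printed windows, which replaced an earlier set after the shares had been seen, the split by chromosome, and the other single list members given with their values. Some named regions are not reported here.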

Additional observations from a re-analysis of the deposited data

Results flagged for a closer look

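At some of the named regions the level with Smndc1 shRNA also differed from that with Atrx shRNA, which was tested as a contrast of the 2 groups in the same edgeR fit, adjusted over all regions. Most named regions were picked because these same Smndc1 shRNA libraries differed from empty vector, which favours passing here. The share of all tested regions that passed is not given, so the counts are descriptions. With TMM factors 5 regions passed. The log2 fold change of Smndc1 against Atrx shRNA was 1.56 in Dbnl (adjusted p = 0.000188, edgeR), 1.11 near Abr (0.0367), -1.11 at the end of Zc3h10 (0.0334), -1.20 at the end of Ccn3, a matricellular growth regulator (0.0379), and 1.27 in Rph3al (0.0307). Rph3al had not passed against empty vector in that fit (0.90, adjusted p = 0.121, edgeR).

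With trended offsets 17 passed, and 12 of them had not passed with TMM factors, of which 11 are given. Lower with Smndc1 shRNA than with Atrx shRNA were regions near Bcor (-1.42), in Chic1 (-1.27), in Arl8b (-1.18), near Dscam (-1.21), in Syt9 (-1.82), near Cbln4 (-0.60), in Lmod1 (-0.66), near Lbp (-0.85) and in Tram2 (-0.66). Higher were regions in Nell1 (1.13) and near Ezh1 (0.67). Their adjusted p ranged from 0.000417 to 0.0458 (edgeR), and Syt9, Cbln4, Lmod1 and Ezh1 had not passed against empty vector with TMM factors.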

How the results depend on the processing

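The counts of called regions moved with most settings. Beside 16 higher and 109 lower regions with TMM factors stood 332 and 569 with trended offsets, 3 and 24 at an adjusted p under 0.01, 22 and 167 in a fit of the 6 libraries, 3 and 17 with DESeq2, 17 and 82 with its size factors in edgeR, 5 and 23 with limma voom, 73 and 218 among regions with a mean count of at least 50, 16 and 105 without a filter, and 122 and 492 without replicate 3 of any group. Leaving out 1 library gave 1 to 204 higher and 0 to 405 lower with TMM factors, and 63 to 535 and 168 to 665 with trended offsets. With the replicate number as a block (replicate block) 307 were higher and 961 lower, and with trended offsets as well 874 and 1237. Deviations of same-numbered libraries correlated by -0.024 to 0.441 (TMM), not always over 0.1, so the libraries were not taken as paired. The replicate 3 libraries did deviate together, with correlations of 0.386, 0.441 and 0.343, the highest of all pairs between groups. The main fit does not model this. Named regions that differed from Atrx shRNA numbered 5 with TMM factors and 17 with trended offsets. The cause of these moves was not tested.

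Over the 104 named regions, 2191 of 2998 alternative values kept direction and side of the threshold, 534 passed it where the TMM fit had not, 235 no longer passed, and 38 changed sign. Those 38 belong to key genes that were not called. Values of the other sign were 0.01 for Neurod1 and 0.02 for Nkx2-2 (mean count of at least 50), 0.04 (trended offsets, with or without the block) and 0.05 (mean count of at least 50) for Irx1, and -0.12 for Pax6 (no replicate 3). With 1 library left out under either scaling, the log2 fold change ran from -0.36 to 0.02 for Gcg, -0.37 to 0.15 for Neurod1, -0.19 to 0.15 for Irx1, -0.25 to 0.15 for Nkx2-2, -0.27 to 0.28 for Pax6, -0.13 to 0.20 for Pcsk2 and -0.05 to 0.35 for Isl1.

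Differences in the share of library counts (percentage points, Smndc1 shRNA minus empty vector) were -0.0183 at gene ends, -0.303 at listed starts, 0.0611 in gene bodies and -0.0428 between genes. Over regions with a mean count of at least 50 they were 0.738, 0.348, -0.109 and -0.628. With 1 library left out they ran from -1.92 to 1.96, -2.08 to 1.56, -0.868 to 0.868 and -1.09 to 1.05. Intervals between libraries cover 3 per group, and weak regions, with few counts, allow only large differences to be called.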
